A study of Agaricus bisporus with 8 samples.

Results

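A set of 37 genes of the button mushroom Agaricus bisporus had drought-over-irrigated ratios of opposite sign on the dye-swapped replicate arrays of riboflavin-fed mycelium. They were found among 449 expressed genes of the 10413 on the array, which is 8.24% of the expressed genes. A gene counted as expressed when its net signal (spot median minus local background median, in intensity units) was 40 or more in at least 2 of the 16 channels. A member had a log2 ratio of drought over irrigated beyond 0.5 in one direction on both riboflavin replicate 1 arrays, beyond 0.5 in the other direction on both replicate 2 arrays, and a mean over the 4 water arrays under 0.6 in size. The genes were thus selected on the riboflavin ratios, the mean of the water ratios and the net signal, and the riboflavin ratios are given as a description without a test. A further 10 expressed genes were opposed in the same way but had a larger water mean, so that 47 genes (10.5%) were opposed with no limit on it.

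The mycelium was of strain var bisporus (H97), grown on hay in gas-tight chambers and given irrigation for 3 weeks, either without a supplement or with 50 µM riboflavin in the water. Drought meant that irrigation was stopped, and total RNA was taken 3 and 7 days later. On every array, drought RNA was hybridised against RNA of irrigated mycelium from the same supplement and day. There were 4 groups of 2 arrays, one for each day with water and one for each day with riboflavin, and with riboflavin both RNAs of an array came from supplemented mycelium. The study asked how drought responses differ with and without vitamin B2. In all 4 groups replicate 1 had drought RNA in Cy3 (the green channel) and irrigated RNA in Cy5 (the red channel), and replicate 2 had the dyes swapped. Replicate number and dye orientation are thus 1 variable and cannot be told apart. All arrays lay on 1 slide, with the water arrays in one column of positions and the riboflavin arrays in the other, so supplement and slide column cannot be told apart either. The labels do not settle whether the replicates came from separate cultures (titles number them apart, descriptions do not), so the spread between arrays may be technical.

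Riboflavin, or vitamin B2, is the precursor of the flavin cofactors FMN and FAD, which flavoproteins use to carry electrons in respiration, fatty acid oxidation and defence against reactive oxygen. Mycelium is the network of hyphae through which a fungus feeds and moves water, and it is the only tissue measured here. In a dye-swapped pair, a gene that answers the treatment keeps its sign on both arrays once the ratios are turned to the same direction, whereas a gene that is brighter in one dye on both arrays changes sign.

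None of the 37 genes has a symbol in the reference table used here (5 expressed genes have one), and that table gives no descriptions, so no function is stated for any of them. All 37 carry a locus tag of the reference assembly, by which they are named. Median gene length was 1631.5 bases for the 28 genes that were positive on replicate 1, 1424 bases for the 9 that were negative on it, and 1401 bases over the 447 expressed genes with a length.

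Of the 37 genes, 28 were positive on riboflavin replicate 1 and negative on replicate 2, which means that after normalisation the green channel was the brighter one on all 4 riboflavin arrays. These are called green-high. The other 9 were negative on replicate 1 and positive on replicate 2, with the normalised red channel brighter on all 4 arrays, and are called red-high. This split depended on the processing, with 36 green-high and 27 red-high genes under the processed signals and 18 and 11 under a normexp offset of 50. It also depended on the arrays and threshold used. The counts were 36 and 28 with the day 3 arrays alone, 54 and 17 with the day 7 arrays alone, and 13 and 2 at a ratio size of 1. Among the 28 green-high genes the median log2 ratio on day 3 was 1.08 on replicate 1 (range 0.50 to 2.57) and -2.33 on replicate 2 (-5.71 to -1.16). On day 7 it was 1.30 on replicate 1 (0.53 to 3.46) and -2.09 on replicate 2 (-6.19 to -0.56). The size of the ratio was larger on replicate 2 for 26 of the 28 genes on day 3 and for 21 on day 7. The mean over the 4 riboflavin arrays was therefore negative in 25 of 28, with a median of -0.66. The 9 red-high genes were more even, with medians of -1.38 and 1.26 on replicates 1 and 2 of day 3 and of -1.08 and 0.96 on day 7. Replicate 2 had the larger size in 4 of 9 on each day, and the median of their 4-array mean was -0.046.

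**Figure D1:**
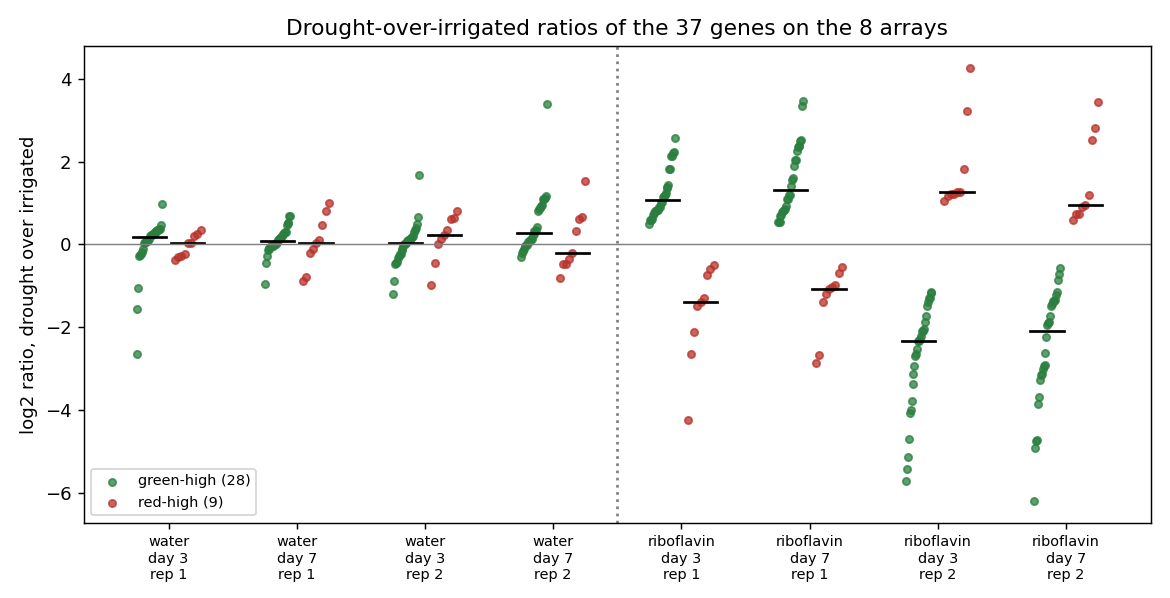
Log2 ratio of drought over irrigated (vertical axis) of the 37 genes on each of the 8 arrays, with 1 point per gene and a black bar at the median of the 28 green-high and the 9 red-high genes. On the riboflavin arrays (right of the dotted line) the green-high points lie above 0 on replicate 1 and below 0 on replicate 2, and the red-high points the other way round, as the selection requires. On the water arrays both sets spread around 0, where the selection also holds the 4-array mean of each gene under 0.6 in size.

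The ratios of all 449 expressed genes give the setting of this set. Across genes, which are not independent replicates, the ratios of replicates 1 and 2 correlated at 0.37 (day 3) and 0.59 (day 7) with water, and at -0.39 and -0.46 with riboflavin. Over all probes the riboflavin values were -0.25 and -0.31. These negative values do not settle the direction of the riboflavin arrays, but the labels state the dyes of every array, and the stated direction was kept. Whether those dye labels are right for both riboflavin replicates was not tested. Of 65 genes beyond 0.5 in size on all 4 riboflavin arrays, 47 were opposed between replicates on both days and 9 had 1 sign on all 4 arrays (8 positive, 1 negative). With the direction of either riboflavin replicate turned, these counts change places, and the 37 genes would each have 1 sign on all 4 arrays. Of 30 such genes on the water arrays, 2 were opposed on both days (0.445% of expressed genes) and 27 had 1 sign (4 positive, 23 negative). Neither of the 2 genes opposed in water was among the 37. Signals were low throughout, and only 478 to 797 genes per array rose well above background in 1 or both channels. The red channel of water day 3 replicate 2 stood apart, with a median net signal of 37 where the other red channels had 5 to 7. Leaving that array out of the signal filter left 325 expressed genes, leaving only its red channel out left 333, and both kept the same 37 members.

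Ranked by the smallest of the 4 riboflavin ratios in size, the leading green-high genes were AGABI2DRAFT_193572, AGABI2DRAFT_189264, AGABI2DRAFT_230069 and AGABI2DRAFT_223546, each beyond 2 log2 units on all 4 riboflavin arrays. AGABI2DRAFT_193572 had ratios of 2.57 and -5.13 on replicates 1 and 2 of day 3 and of 3.34 and -4.75 on day 7. Its net signal in the green channel was 161 and 251.5 under drought (replicate 1, days 3 and 7) and 1142 and 793.5 in irrigated mycelium (replicate 2), against 18 to 34.5 in the 4 red riboflavin channels. On the water arrays the same gene read 15.5 to 78 in all 8 channels, so the green riboflavin channels were the only ones above 100.

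AGABI2DRAFT_189264 followed the same pattern with ratios of 2.20 and -5.71 on day 3 and of 3.46 and -6.19 on day 7. Its green signal was 172.5 and 161.5 in the drought channels of replicate 1 and 1193.5 and 1294 in the irrigated channels of replicate 2. The red riboflavin channels read 36, -1.5, 19 and 8, and the 8 water channels 9 to 55.5. The drought RNA of this gene was thus bright in replicate 1 and dim in replicate 2, and the irrigated RNA dim in replicate 1 and bright in replicate 2, on both days.

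AGABI2DRAFT_230069 had ratios of 2.14, -4.70, 2.37 and -4.71 (day 3 replicates 1 and 2, then day 7), and AGABI2DRAFT_223546 ratios of 2.13, -4.00, 2.38 and -3.86. The green signal of AGABI2DRAFT_230069 was 92.75 and 109.75 under drought and 509 and 427 when irrigated, and none of its 8 water channels was well above background. AGABI2DRAFT_135951 had the brightest single value among the green-high genes, 1450.5 in the irrigated channel of riboflavin day 3 replicate 2. Its ratios were 1.37, -5.42, 2.03 and -4.91 in the same order, and replicate 2 was larger in size by over 2 log2 units on each day. AGABI2DRAFT_190148 (1.82, -3.78, 2.36 and -3.26) and AGABI2DRAFT_190604 (1.43, -3.13, 1.60 and -3.16) were dimmer, with no value above 222 and 162.

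**Figure D2:**
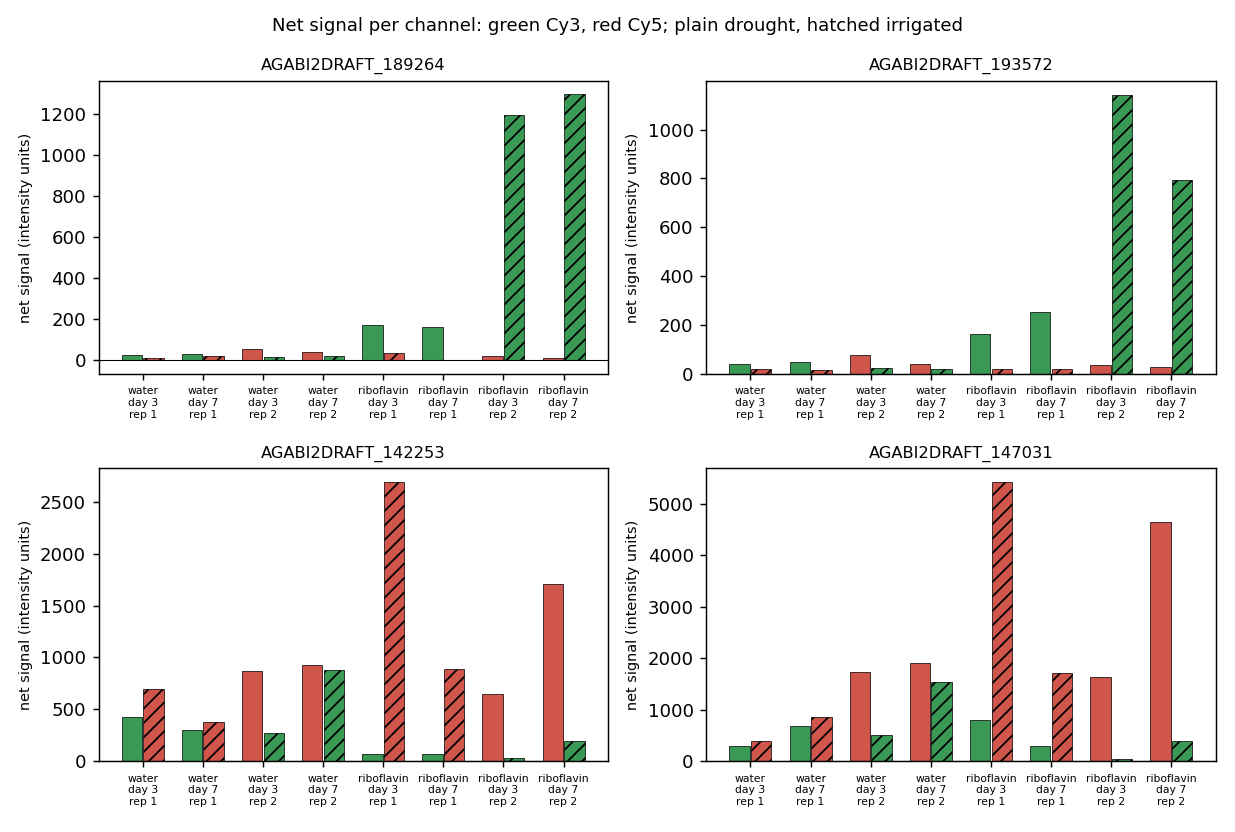
Net signal in intensity units (vertical axis, linear) of 2 green-high and 2 red-high genes in every channel of the 8 arrays; bar colour is the dye, plain bars are drought RNA and hatched bars irrigated RNA. In the upper panels the green bars of the riboflavin arrays stand out whichever RNA they carry, up to 1294 for AGABI2DRAFT_189264. In the lower panels the red bar of each riboflavin array is taller than its green bar. The water arrays there carry signal in both dyes, which overlaps some of the red riboflavin bars.

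A few green-high genes differed from these in being bright with water. AGABI2DRAFT_194940, the last of the 8 in that ranking, had riboflavin ratios of 1.25, -2.32, 2.50 and -1.45. Its highest net signal was 291.75, in the drought channel of water day 7 replicate 2. AGABI2DRAFT_64309 reached 1255.75 in that same channel, against 289 and 215.5 in its brightest riboflavin channels, and its riboflavin ratios were 1.01, -3.37, 1.90 and -1.34. In all, 6 of the 28 green-high genes had their brightest channel by net signal on a water array, 3 on day 3 replicate 2 and 3 on day 7 replicate 2. The former 3 peaked in the drought channel of that array, which was raised in general. There 34.7% of all genes had a net signal of 40 or more, against 0.845% to 1.91% in the other channels. After normalisation these 3 genes (AGABI2DRAFT_188304, AGABI2DRAFT_209707 and AGABI2DRAFT_192996) were higher in other channels. By net signal the brightest channel was the irrigated one of riboflavin day 3 replicate 2 for 16 genes, that of day 7 replicate 2 for 5, and the drought channel of riboflavin day 7 replicate 1 for 1.

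The weakest members lay close to the limit of 0.5. AGABI2DRAFT_149520 entered with ratios of 0.50, -2.93, 1.09 and -2.91, AGABI2DRAFT_116785 with -0.51, 1.26, -0.68 and 2.52, and AGABI2DRAFT_55789 with 0.58, -1.72, 0.53 and -1.15. Just outside it were AGABI2DRAFT_186299 (1.41, -2.75, 4.24 and -0.48), AGABI2DRAFT_194352 (0.47, -1.77, 0.55 and -1.17) and AGABI2DRAFT_75878 (1.04, -0.60, 1.27 and -0.47). These 3 genes outside had the same pattern of signs as the green-high members.

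Among the 9 red-high genes, AGABI2DRAFT_142253 and AGABI2DRAFT_147031 were far brighter than the rest. AGABI2DRAFT_142253 had ratios of -4.24 and 3.22 on day 3 and of -2.66 and 2.81 on day 7. Its net signal in the red riboflavin channels was 2689 and 892 (irrigated, replicate 1) and 651 and 1712.25 (drought, replicate 2), whereas the green ones read 72, 66.25, 32 and 193.5. In water its 8 channels lay between 274.25 and 928.75, so the green riboflavin values were below all of the water values. AGABI2DRAFT_147031 had ratios of -2.10, 4.27, -1.38 and 3.44, with 5419.5, 1709.5, 1640 and 4649 in red and 806.5, 300.5, 45 and 394 in green. Its water channels spread from 285 to 1902 and overlapped both.

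AGABI2DRAFT_206868 was likewise lower in green than with water. Its ratios were -2.65, 1.82, -2.85 and 0.74, and the green riboflavin channels read 20, 32.25, 23 and 42.75, while the water channels read 66.25 to 378.25. The remaining 6 were smaller. AGABI2DRAFT_217506 had ratios of -1.38, 1.22, -0.99 and 0.96, AGABI2DRAFT_72502 of -1.49, 1.22, -1.19 and 0.91, and AGABI2DRAFT_119174 of -1.29, 1.27, -1.08 and 0.73. Those of AGABI2DRAFT_121682 were -0.75, 1.17, -1.03 and 0.58, and those of AGABI2DRAFT_214792 were -0.59, 1.05, -0.55 and 1.20. The 9th is AGABI2DRAFT_116785, given above, whose value of 848.5 in the drought channel of riboflavin day 7 replicate 2 was its brightest.

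Over the whole set the same contrast between dyes held in the median net signals. The green-high genes had medians of 62.25 and 67.5 (drought, replicate 1, days 3 and 7) and of 135.5 and 102.6 (irrigated, replicate 2) in the green riboflavin channels. In red they had 17.25 and 12.25 (irrigated, replicate 1) and 14.75 and 14.5 (drought, replicate 2). Net signals are not normalised, and green was the brighter dye in general. Array-wide medians with riboflavin ranged from 17 to 22.5 in green, but only from 5 to 7 in red. Part of the gap between the dyes is thus not particular to the green-high genes. The red-high medians went against this offset, with 23 to 42.75 in green and 132.25 to 226 in red. All 28 were well above background in both green channels on both days. In red, 11 were well above it on both days in the irrigated channel of replicate 1 and 11 on neither, with 13 and 11 in the drought channel of replicate 2. Of the 112 riboflavin ratios of the green-high genes, 54 had 1 channel not well above background, as had 16 of the 36 ratios of the red-high genes, so the size of these ratios is not exact. Of the 20 members with duplicate spots, 15 passed the rule on each spot alone, and the spots of a gene differed by a median of 0.14 log2 units on the riboflavin arrays (up to 2.85). No member spot was marked as an outlier.

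Setting riboflavin against water within 1 dye shows which channel departed from the water arrays. These comparisons use the values that chose the genes and are descriptions. The green-high genes had a higher mean level in the green channel with riboflavin in 28 of 28, by a median of 1.60 log2 units (range 0.46 to 4.22). For 23 of 28 the 4 green riboflavin values lay above all 4 green water values, as they did for 14.5% of expressed genes. Nothing is read from that count, since 19 of the 28 reached the signal filter only through riboflavin channels; among the 9 that reached it in water alone, 4 lay wholly above. In the red channel the median difference was -0.11 (-2.52 to 0.25). None of the 28 lay wholly above water in red (1.56% of expressed genes did), and 2 lay wholly below (1.11%). AGABI2DRAFT_189264 had a green level of 5.08 ± 0.18 with water and 9.30 ± 1.88 with riboflavin (log2, SD, n = 4 arrays). The lower of its riboflavin values were those of replicate 1.

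The red-high genes were lower in the green channel with riboflavin in 9 of 9, by a median of -0.81 (-2.77 to -0.090), and 3 of 9 lay wholly below water (7.35% of expressed genes). In red all 9 differences were positive, with a median of 0.44 (0.019 to 0.91), and none of the 9 lay wholly above or below the water values. The green level of AGABI2DRAFT_142253 was 9.46 ± 0.90 with water and 6.69 ± 0.72 with riboflavin (log2, SD, n = 4). Over all expressed genes the median difference was -0.015 in green and 0.13 in red. The red riboflavin level was nearer to water than the green one for 23 of the 28 green-high genes, for 6 of the 9 red-high genes and for 63.5% of expressed genes. The green-high exceptions were AGABI2DRAFT_64309, AGABI2DRAFT_75975, AGABI2DRAFT_194940, AGABI2DRAFT_209707 and AGABI2DRAFT_192996, which all reached the signal filter in water alone. The 19 that reached it only through riboflavin channels were dim in water, and a red channel near background with both supplements can differ little. Red is thus not shown to be unchanged.

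**Figure D3:**
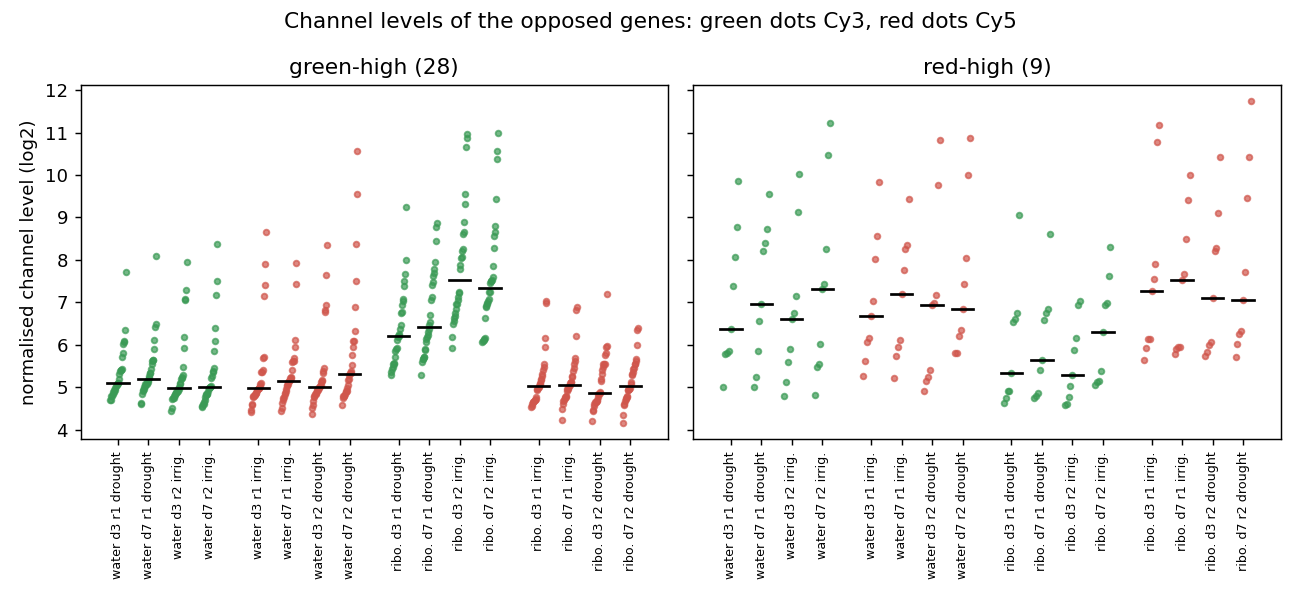
Normalised channel level in log2 units (vertical axis) of the 28 green-high genes (left) and the 9 red-high genes (right) in each of the 16 channels, with 1 point per gene and a black bar at the median; dot colour is the dye, and d, r, drought and irrig. give day, replicate and RNA. The medians of the green riboflavin channels lie above those of all other channels for the green-high genes and below them for the red-high genes, for drought and irrigated RNA alike.

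The replicates of the water arrays give a measure of the same kind that the rule did not use, since it fixed only their mean. The replicate contrast was taken as the ratio of replicate 1 minus that of replicate 2, divided by 2, over both days. With riboflavin, where the rule fixes its sign and a least size, its median was 1.77 (0.85 to 4.39) for green-high and -1.20 (-3.23 to -0.85) for red-high genes. With water it was -0.030 (-1.83 to 0.49) and -0.024 (-0.65 to 0.18), and it had the sign of the riboflavin contrast in 13 of 28 and 5 of 9 genes. Of the 28, 19 reached the signal filter only through riboflavin channels, and a gene near background in water can show little contrast there. Before division by 2, the median of these 19 was 0.058, with 10 positive. For the 9 green-high genes that reached the filter in water alone it was -0.36, with 3 positive. Over all expressed genes the water contrast had a median of 0.12 and was positive in 66.8%. All 4 water ratios were within 0.5 of 0 in 12 of the 28 green-high genes and in 1 of the 9 red-high genes. Nothing is read from these counts, since the rule limits the water mean and the share over all expressed genes was not taken. The green-high genes also had the lower median net signal in every water channel, such as 23 against 59.5 under drought on day 3 replicate 1.

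**Figure D4:**
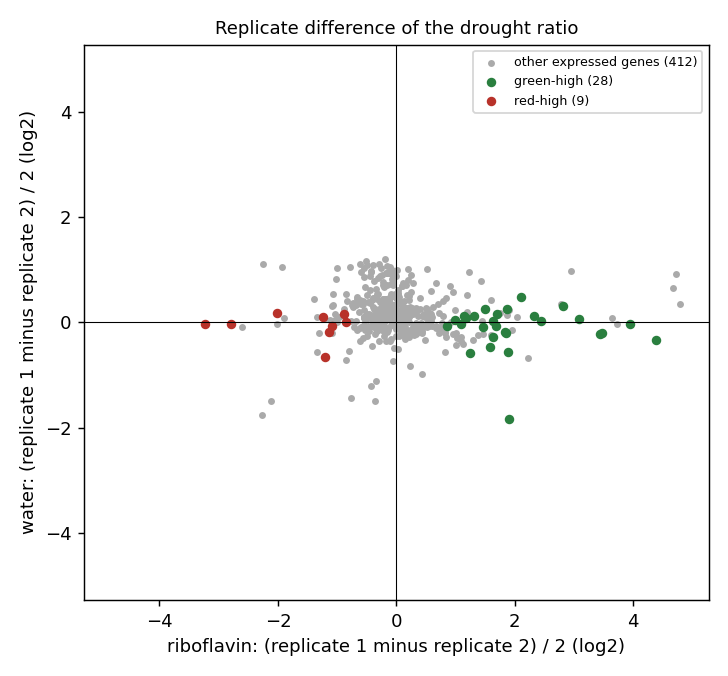
Replicate contrast, the log2 drought ratio of replicate 1 minus that of replicate 2 divided by 2, with riboflavin (horizontal axis) and with water (vertical axis) for the 28 green-high genes, the 9 red-high genes and the 412 other expressed genes. The members spread to both sides on the riboflavin axis, as selected, from -3.23 to 4.39, and lie between -1.83 and 0.49 on the water axis.

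The difference between the water replicates was tested by limma in 1 fit of all 8 arrays, with a term for each group and a dye term for each supplement. It called 0 of the 449 genes at an adjusted p under 0.05 (0%), with 34 genes at an unadjusted p under 0.05, of which 4 were members. AGABI2DRAFT_64309 had water ratios of -2.65 and 0.35 on replicates 1 and 2 of day 3 and of -0.95 and 3.39 on day 7. Its replicate 1 values were the lower ones on both days, opposite to riboflavin, where replicate 1 was the higher. Its difference of replicate 1 minus replicate 2 was -3.67 ± 0.52 (SE) with an adjusted p of 0.589. AGABI2DRAFT_194940 (-1.12 ± 0.31), AGABI2DRAFT_149026 (0.97 ± 0.40) and AGABI2DRAFT_190148 (0.64 ± 0.28) had the same adjusted p of 0.589. The value of AGABI2DRAFT_149026 was 0.39 without either water day 3 array and 1.55 without either water day 7 array.

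Differences of the water drought response between day 7 and day 3 were also not called in any gene by the same limma fit (0 of 449, 0%), and 28 genes had an unadjusted p under 0.05. The 2 members among these 28 were AGABI2DRAFT_64309 (2.37 ± 0.52, day 7 minus day 3) and AGABI2DRAFT_194940 (1.30 ± 0.31), each with an adjusted p of 0.71. The latter had ratios of -1.56 and -0.23 on day 3, while the day 7 values were -0.049 and 0.87, and both replicates were higher on day 7. Among the negative differences the smallest p-values were those of AGABI2DRAFT_119174 (-0.66 ± 0.34, adjusted p 0.734) and AGABI2DRAFT_188304 (-0.76 ± 0.57, adjusted p 0.783). The value of AGABI2DRAFT_188304 came from a ratio of 1.67 on water day 3 replicate 2, while its other 3 water ratios lay between -0.28 and -0.047. Without that array, or without water day 7 replicate 2, the difference was 0.24, and it was -1.77 without either water replicate 1 array.

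The mean log2 signal of both channels of an array, which the ratio rule does not use directly, was tested between riboflavin and water. A difference in 1 dye alone can move this mean, so the test does not show brightness in both dyes. For the green-high genes the median difference was 1.60 in green and -0.11 in red. In bulk mycelium, more of the cells that hold a transcript and more of it per cell cannot be told apart. Limma called 51 of 449 genes (11.4%), 25 higher and 26 lower with riboflavin, and 133 genes had an unadjusted p under 0.05. With no scaling between arrays the calls were 17 higher and 8 lower. Among the members 11 of 37 were called, all of them green-high and higher with riboflavin, and none of the 9 red-high genes was called in this fit. The median difference was 0.76 log2 units for green-high genes (23 of 28 positive), -0.33 for red-high genes (-1.16 to 0.19) and 0.058 over all genes tested.

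The counts of the green-high genes are bound up with the way they were chosen. Of the 28, 19 reached the signal filter only through riboflavin channels and so had to be brighter there, and 8 of the 11 calls are among these 19. In a gene whose red channels are near background, a higher green channel also raises the mean of both channels. The other 9 green-high genes and all 9 red-high genes reached the filter in water alone, and 3 of these 18 were called. The median difference of these 18 was -0.087, with 7 positive, and that of the 9 green-high genes among them was -0.042, with 4 positive, whereas all 19 of the others were positive. The 3 genes called among the 18 were all green-high. They were AGABI2DRAFT_193572 (1.77 ± 0.43 SE, adjusted p 0.0415, limma), AGABI2DRAFT_149026 (0.95 ± 0.24, adjusted p 0.0456) and AGABI2DRAFT_113794 (0.94 ± 0.21, adjusted p 0.0402), of which AGABI2DRAFT_113794 is named after its values were seen. Within 1 dye they differed from water by 3.76, 1.76 and 1.75 in green and by -0.21, 0.14 and 0.14 in red. The rule chose all 3 for green above red on the riboflavin arrays, so these calls are not free of the selection either.

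The smallest p-values among members belonged to AGABI2DRAFT_190148 (1.19 ± 0.20, adjusted p 0.0222, limma) and AGABI2DRAFT_181707 (0.81 ± 0.14, adjusted p 0.0226). Both reached the signal filter only through riboflavin channels, so a higher signal there was part of how they entered. AGABI2DRAFT_190148 was not well above background in any water channel. With the water arrays set at the lowest level well above background, its signal was 2.23-fold higher with riboflavin. Only 4 of its riboflavin channels were well above background and the others were used as measured, so this fold is not a firm bound. In all, 9 members were dim in all 8 water channels, of which 3 were called. The other called ones were AGABI2DRAFT_230069, 2.78-fold higher by the same measure, and AGABI2DRAFT_190604, 1.92-fold higher, with the same limit. Both also reached the signal filter only through riboflavin channels. AGABI2DRAFT_181707 read 63.75, 73, 81.25 and 84.5 in the green riboflavin channels and 9.25 to 23.5 in the red ones. In the opposite direction AGABI2DRAFT_206868 (-1.08 ± 0.36, adjusted p 0.101) and AGABI2DRAFT_142253 (-1.16 ± 0.48, adjusted p 0.156) did not pass. AGABI2DRAFT_206868 passed with a replicate block (adjusted p 0.0473) and with the processed signals (adjusted p 0.0334), and its adjusted p lay between 0.0727 and 0.287 under the other alternatives.

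The number of calls changed when 1 array was left out. Without any 1 of the 4 water arrays, or without riboflavin day 7 replicate 2, no member was called, and 3 were called without riboflavin day 3 replicate 2. Leaving out riboflavin day 3 replicate 1 or day 7 replicate 1 left 10 and 12 members called. Over these fits the difference of AGABI2DRAFT_190148 stayed between 1.04 and 1.36 and that of AGABI2DRAFT_181707 between 0.72 and 0.88, with the largest adjusted p at 0.0705 for each. Both genes had reached the signal filter only through riboflavin channels, so these ranges are not free of the selection.

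**Figure D5:**
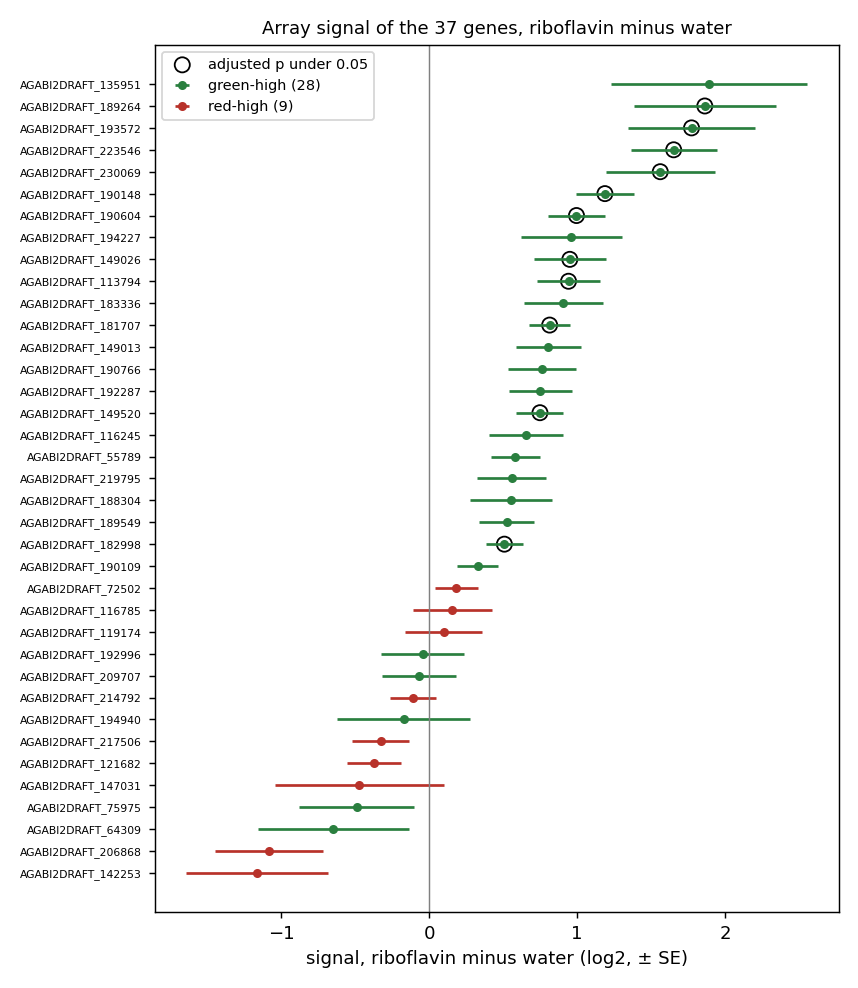
Difference in mean log2 signal of both channels, riboflavin minus water, with its limma standard error (horizontal axis) for each of the 37 genes over all 8 arrays. The 11 genes ringed in black had an adjusted p under 0.05 and are all green-high; the values run from -1.16 for AGABI2DRAFT_142253 to 1.89 for AGABI2DRAFT_135951.

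The same signal was set between days, as day 7 minus day 3 over both supplements. Limma called 0 of 449 genes (0%), and 20 had an unadjusted p under 0.05, none of them a member. The green-high genes had a median difference of 0.073. The red-high genes were all positive, with a median of 0.29 (0.070 to 0.59), but 8 of 9 were positive with the processed signals and 7 of 9 without scaling between arrays. The smallest p-values in each direction belonged to AGABI2DRAFT_116785 (0.55 ± 0.27, adjusted p 0.866) and AGABI2DRAFT_121682 (0.32 ± 0.18, adjusted p 0.866), and to AGABI2DRAFT_188304 (-0.26 ± 0.28, adjusted p 0.921) and AGABI2DRAFT_116245 (-0.19 ± 0.25, adjusted p 0.932). With 1 array left out, the last 2 ran from -0.51 (without riboflavin day 3 replicate 1) to -0.033 (without replicate 2 of that group) and from -0.37 to -0.0026 (the same arrays).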

How the data were processed

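Spot and local background intensity values of both channels came from scanner output that, per the file headers, Agilent Feature Extraction 11.5.1.1 had written. Feature Extraction had also computed a log10 ratio of red over green from background-subtracted, dye-normalized signals, per the file headers, which served only to check the direction. The authors deposited a further table of log2 ratios (red over green). The submitters' processing notes name limma, whose normexp correction (offset 16) and loess gave every deposited log2 value to within 5e-10. These ratios were averaged per gene and turned to drought over irrigated in replicate 1. Channel levels and array signals came from the same correction with Aquantile scaling between arrays (limma 3.58.1, R 4.3.3). The tests used lmFit and eBayes on all 449 expressed genes, with Benjamini-Hochberg adjustment over all of them. Errors on differences are standard errors, and the number of arrays limits the precision.

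The members, the lists and the tests were chosen with earlier results of these data known. Named are the 8 green-high genes with the largest smallest ratio, all red-high genes, the 3 nearest the limit on each side, and the 2 smallest p-values in each direction of each test. Locus tags matched 10348 of 10413 genes. The fits were tested on simulated data. Alternatives were other thresholds, filters, offsets, processed intensity values deposited by the authors, other fits, and leaving out each array. Sequences, coordinates and gene functions were not analysed here.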

Additional observations from a re-analysis of the deposited data

How the results depend on the processing

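The opposed signs on the riboflavin arrays were kept in all 37 genes with ratios from a normexp offset of 50 and from the processed signals, while the number of members moved. It was 24 with a ratio size of 0.75, 15 with a size of 1, 63 with the processed signals (24 of them among the 37), 64 from the day 3 arrays alone and 71 from the day 7 arrays alone. With an offset of 50 it was 29 (21 among the 37), and 13 genes were members under all 3 sources of ratios. For the signal with riboflavin minus water, 32 genes were called with an offset of 50 (5 members), 100 with the processed signals (23 members) and 25 with no scaling between arrays (8 members), and leaving out 1 array at a time gave 5 to 55 calls. A replicate block gave 53 calls, 13 of them members. Deviations of same-numbered arrays in signal correlated at -0.097 to 0.42 between groups, and those in ratio at 0.892 between the riboflavin days but at -0.14 to 0.043 in the other pairs. The numbers share the dye orientation and were not taken to pair the samples. For day 7 minus day 3 the count was 1 with no filter, 2 with the processed signals, 1 with an intensity trend and robust fit, 2 with no scaling and 0 with a replicate block or any 1 array left out. For the water replicates it was 1 with no filter (AGABI2DRAFT_64309), 2 with the processed signals, and 0 to 43 with 1 array left out. The highest of these came without either water day 7 array and held no member. The water difference between days had 0 calls throughout, also with no replicate block. That of AGABI2DRAFT_188304 ran from -1.77 to 0.24 with 1 array left out. The cause of these changes was not tested. Of 31 alternatives to a count above 0, 16 stayed within 1.5 times that count, and low signal limits the sizes, since 54 of 112 green-high and 16 of 36 red-high riboflavin ratios had a channel not well above background.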
